A study of Mus musculus with 12 samples.

Results

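Lysosomal cathepsins, lysosomal membrane proteins and autophagy genes were read in whole mouse pancreas. The 9 genes were Ctsb, Ctsl, Ctsd, Lamp1, Lamp2, Sqstm1, Map1lc3b, Gabarapl1 and Becn1. Their members were all probe sets to which the platform annotation gave 1 of these symbols and no other, which were 22 of the 22516 probe sets on the array. A filter on dim values left 20 of the 22 in the tests, with at least 1 for each gene. Probe sets of 1 gene share their target and are not independent of each other.

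The 12 arrays, each of total RNA from pancreas, fell into 4 groups of 3. Mist1KO caerulein mice and Mist1KO saline mice lacked Mist1 and received injections of caerulein or of saline. Wild type caerulein mice and wild type saline mice were C57BL6 and received the same injections. All were males aged 2 to 4 months, injected hourly over 4 hours and killed at the end of that time. Mist1, encoded by Bhlha15, is a transcription factor of secretory cells, and caerulein is an analogue of the gut hormone cholecystokinin. The labels give no allele, strain background or controls from the same litters for the Mist1KO mice. No time after 4 hours was sampled. The values are of bulk tissue, in which fewer cells of a type and less RNA per cell cannot be told apart.

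Lysosomes are acidic organelles in which cathepsins, a group of proteases, break down proteins. In macroautophagy a double membrane closes around cytoplasm to form an autophagosome, which then fuses with a lysosome. In acinar cells, the enzyme-producing cells of the pancreas, cathepsin B can cut trypsinogen into active trypsin and cathepsin L can degrade trypsinogen and trypsin. The meeting of these proteases with digestive enzymes is a long studied early step of experimental pancreatitis by caerulein.

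Bhlha15, the gene removed in Mist1KO, read 38.3 to 106.8 on the 6 Mist1KO arrays and 729.5 to 1624.3 on the 6 wild type arrays. The labels do not say whether its probe set lies in the deleted stretch. The hybridisation spikes, bacterial and phage transcripts added to every sample, averaged 446 ± 58 in Mist1KO caerulein, 914 ± 138 in Mist1KO saline, 1070 ± 325 in wild type caerulein and 1260 ± 61.8 in wild type saline (geometric mean of 18 probe sets, SD over n = 3). Acinar markers were bright in every pancreas, with 15 of 19 listed markers measured. Their summed signal was 104600 to 161000 in Mist1KO caerulein, 180600 to 212300 in Mist1KO saline, 206300 to 283800 in wild type caerulein and 249000 to 313300 in wild type saline. All 17 listed markers of macrophages and neutrophils, cells rich in cathepsins, had a probe set. Their sums were 2563 to 3078, 1503 to 2627, 1660 to 2102 and 1984 to 3132 in the same order of groups. Among their defining markers, Csf1r read 247.5 to 586.9, Adgre1 109.3 to 312.6 and the lysozyme Lyz2 217.8 to 428.1 over all arrays, while the integrin Itgam read 2.4 to 20.6 and S100a9 1.5 to 76.6, both too dim to be tested.

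A value below is the deposited signal on its linear scale. A change is a difference of log2(signal + 18.7) ± SE with n = 3 per group, and a fold is 2 to the power of that difference, which understates the change of dim probe sets. Rose, fell, higher and lower are used of changes with an adjusted p under 0.05 in limma's moderated test, adjusted by Benjamini-Hochberg over all 15716 probe sets tested. The series calls the pancreata of a group biological replicates, and their number limits the precision.

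With caerulein in Mist1KO, 6 of the 20 tested probe sets rose and 4 fell, which is 50% beside 24% of all probe sets tested (10.5% higher and 13.4% lower). With caerulein in wild type, 6 rose and 3 fell, which is 45% beside 18.9% of all (9.19% higher and 9.74% lower). The median change of the 20 was 0.15 in Mist1KO and 0.04 in wild type, against -0.13 and -0.14 over all probe sets. Between Mist1KO and wild type after saline only 2 of the 20 were past the threshold, both of Lamp2 and both higher in Mist1KO, which is 10% beside 12.6% of all (6.84% higher and 5.74% lower). After caerulein 4 were higher and 8 lower in Mist1KO, which is 60% beside 20.2% of all (10% higher and 10.2% lower). The 4 higher ones were all of Lamp2. Each group serves in 2 of these comparisons, so the counts are not independent. The count after saline fell to 1 without Mist1KO saline replicate 1 or 3 or wild type saline replicate 1 or 2. With arrays centred on their medians the median change of all probe sets with caerulein was -0.01 in each genotype, a shift of over 0.1 from the values above.

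**Figure D1:**
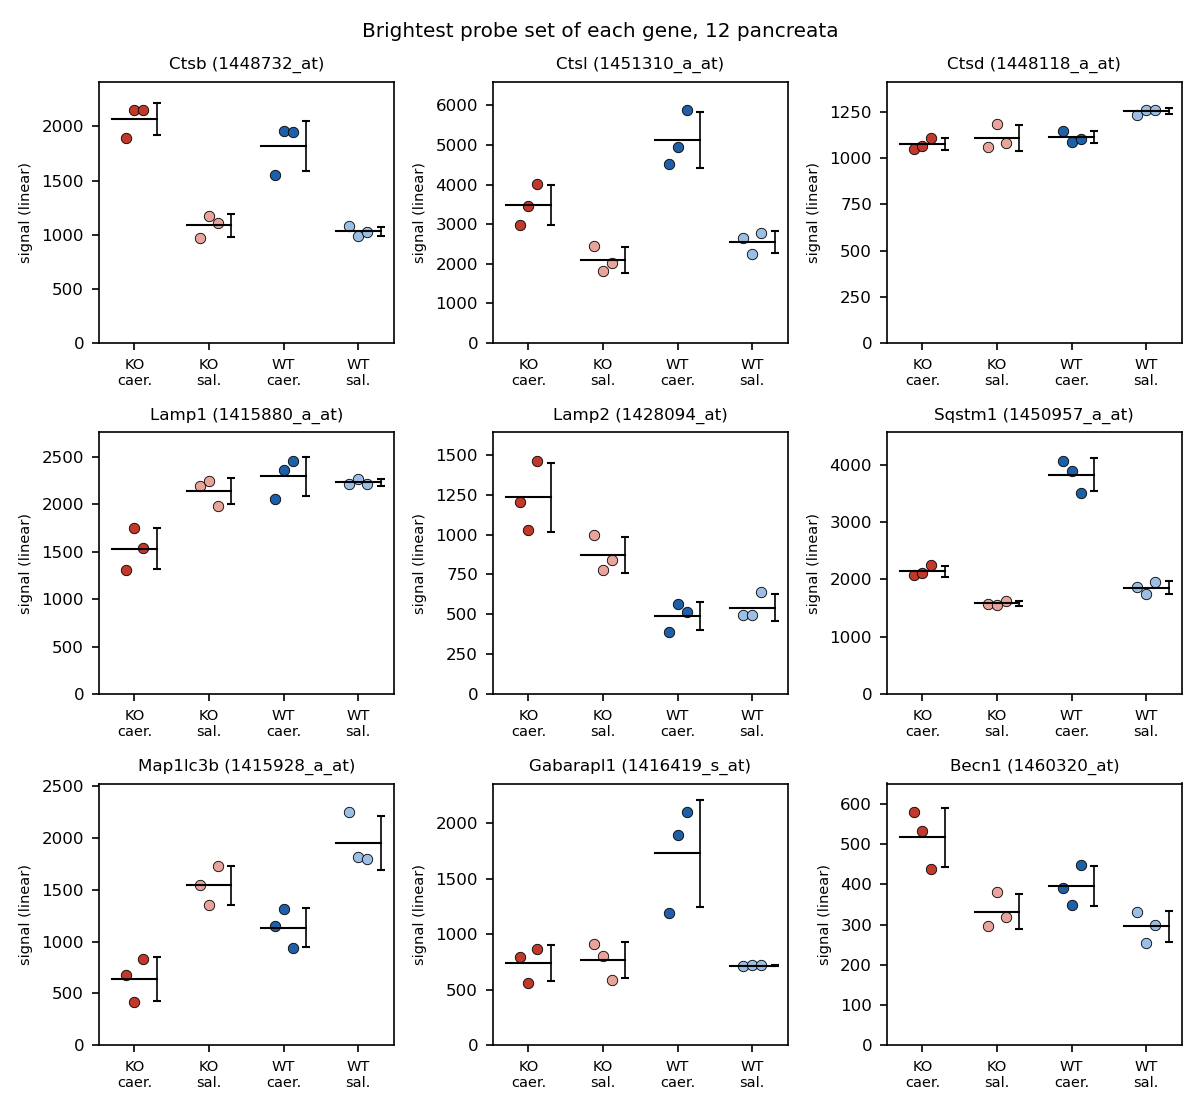
Signal of the brightest probe set of each gene on a linear axis from 0, with 1 point per pancreas, a line at the mean and a bar of 1 SD (n = 3). KO is Mist1KO, WT is wild type, caer. is caerulein and sal. is saline; Ctsb and Ctsl stand above saline in both genotypes, Gabarapl1 stands out in wild type caerulein, and Lamp2 is high on the Mist1KO arrays.

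RefSeq promoter windows (GRCm38.p6), from 250 bases before to 50 after a start site, were found for 7 of the 9 genes, all but Ctsb and Becn1. They were searched on both strands for CACGTG, the core of the CLEAR element through which TFEB drives lysosomal genes, for TGACNNNGC, the core of the antioxidant response element, and for TGATGNAA, the core of the element bound by ATF4 and C/EBP factors. Of all 32851 windows, 7.15%, 12.4% and 3.97% held them. CACGTG stood 4 times in Lamp1 and 2 times in Ctsd, genes that did not rise with caerulein. TGACNNNGC stood 2 times in Ctsd and 1 time in Map1lc3b. The Ctsl window starts from a transcript 252 bases inside the gene and lies wholly within the gene, so it is not shown. It held CACGTG and TGATGNAA 1 time each, both downstream of the annotated start of the gene. None of the 3 was in the windows of Sqstm1, which rose in both genotypes, of Gabarapl1, which rose in wild type, or of Lamp2. Bases outside the windows were not searched, so elements further from a start site could not be seen for any gene. The part of these elements in the changes was not tested. The last 120 bases before the start site are given for Lamp1, Ctsd, Sqstm1 and Gabarapl1, 5′ to 3′ on the gene's strand. CACGTG and TGACNNNGC are in capitals, and a match is a description of letters and not a site shown to be used.
Lamp1 (chr8:13159041-13159160, plus strand): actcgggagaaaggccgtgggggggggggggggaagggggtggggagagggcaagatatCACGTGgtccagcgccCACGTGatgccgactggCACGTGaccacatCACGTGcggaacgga
Ctsd (chr7:142387828-142387947, minus strand): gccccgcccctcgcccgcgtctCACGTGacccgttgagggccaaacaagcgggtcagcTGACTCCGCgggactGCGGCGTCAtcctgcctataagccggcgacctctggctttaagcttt
Sqstm1 (chr11:50210821-50210940, minus strand): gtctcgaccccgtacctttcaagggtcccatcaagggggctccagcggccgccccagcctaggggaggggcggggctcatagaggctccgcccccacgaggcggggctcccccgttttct
Gabarapl1 (chr6:129533072-129533191, plus strand): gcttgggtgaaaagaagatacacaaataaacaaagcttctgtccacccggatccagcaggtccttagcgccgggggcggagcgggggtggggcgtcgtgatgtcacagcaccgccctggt

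Cathepsin B, encoded by Ctsb (chr14:63122462-63145923, GRCm38.p6), rose with caerulein in both genotypes. With its brightest probe set, 1448732_at, the signal was 1893.4, 2156.1 and 2147.2 in Mist1KO caerulein, against 972, 1172.9 and 1112.2 in Mist1KO saline. In wild type it was 1548.9, 1953.7 and 1946.6 after caerulein, against 1077.2, 992.8 and 1024.3 after saline. Every caerulein array lay above every saline array. The change was 0.92 ± 0.12 in Mist1KO (1.89-fold, adjusted p = 8.15e-05) and 0.80 ± 0.12 in wild type (1.74-fold, adjusted p = 0.000369). After quantile normalization the wild type change was 0.52 (adjusted p = 0.00439). A further probe set, 1417490_at, gave 1.08 ± 0.17 in Mist1KO (adjusted p = 0.000402) and 1.25 ± 0.17 in wild type (adjusted p = 0.000196).

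The other probe sets of Ctsb were dim. 1417491_at read 35 to 66.5 over all arrays and did not pass in any comparison. 1417492_at was left out by the filter on dim values. It read 70.2, 126.3 and 22.1 in Mist1KO caerulein against 3.9 to 9.1 in Mist1KO saline, and 16.3, 121.1 and 114.5 in wild type caerulein against 5.8 to 10.5 in wild type saline. Its caerulein arrays all lay above its saline arrays, with a wide spread among them. No probe set of Ctsb differed between the genotypes past the threshold: the brightest changed by 0.19 ± 0.12 after caerulein (adjusted p = 0.298) and by 0.07 ± 0.12 after saline (adjusted p = 0.743). With 1417490_at the Mist1KO arrays lay above the wild type arrays after saline (0.48 ± 0.17, adjusted p = 0.0851) and after caerulein (0.32 ± 0.17, adjusted p = 0.220). Its difference after saline passed without wild type saline replicate 3 (adjusted p = 0.0247) or wild type caerulein replicate 1 (0.0465). For the brightest probe set the difference of the caerulein responses, Mist1KO minus wild type, was 0.12 ± 0.17 (95% interval -0.24 to 0.48, adjusted p = 0.788).

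Ctsl (chr13:64361890-64370772), which encodes cathepsin L, had 1 probe set and also rose with caerulein. The signal was 2992.5, 3449.1 and 4019.8 in Mist1KO caerulein, against 2459.1, 1821.8 and 2016 in Mist1KO saline. It was 4530.4, 4943.2 and 5898.4 in wild type caerulein, against 2648.3, 2244.9 and 2783.1 in wild type saline. The wild type caerulein arrays lay above all others. The change with caerulein was 0.73 ± 0.15 in Mist1KO (1.66-fold, adjusted p = 0.00305) and 0.99 ± 0.15 in wild type (1.99-fold, adjusted p = 0.000418). After caerulein Ctsl was 1.47-fold lower in Mist1KO than in wild type (-0.55 ± 0.15, adjusted p = 0.0194). That call ended with arrays centred on their medians (adjusted p = 0.0626), and without Mist1KO caerulein replicate 1 (adjusted p = 0.0923), Mist1KO caerulein replicate 2 (0.0537) or wild type caerulein replicate 3 (0.0794). The difference of the responses did not pass (-0.27 ± 0.21, adjusted p = 0.597).

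The markers of macrophages and neutrophils moved beside the cathepsins as follows. In Mist1KO, 2 of the 14 tested rose with caerulein, Cd14 (2.00) and Lgals3 (3.35), and none fell, which is 14.3% beside 24.2% of all genes. Csf1r averaged 332 in Mist1KO caerulein and 413 in Mist1KO saline, Adgre1 164 and 174, and Lyz2 314 and 298, none past the threshold. In wild type Lgals3 rose (1.43) and 4 fell, Lyz1, Ngp, Adgre1, which encodes a macrophage surface antigen (-0.85), and Csf1r, the receptor for the macrophage growth factor (-0.68). These wild type calls are 35.7% of the 14, beside 18.7% of all genes. The median change of the markers was 0.23 in Mist1KO and -0.44 in wild type. Their part in the cathepsin changes was not tested beyond these values.

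Because cathepsin B activates and cathepsin L degrades trypsinogen, the change of one was set beside that of the other within each array. The difference log2 Ctsl minus log2 Ctsb has no meaning as a level, since it spans 2 probe sets, and only its shifts between groups are of use. It was 0.66, 0.67 and 0.90 in Mist1KO caerulein, 1.32, 0.63 and 0.85 in Mist1KO saline, 1.54, 1.33 and 1.59 in wild type caerulein, and 1.28, 1.16 and 1.43 in wild type saline. After caerulein the Mist1KO arrays all lay below the wild type arrays, with a shift of -0.74. After saline the shift was -0.36 and the genotypes overlapped. With caerulein it moved by -0.19 in Mist1KO and by 0.20 in wild type, both with overlapping groups. After quantile normalization the wild type shift was 0.38. With the other bright probe set of Ctsb, 1417490_at, the wild type shift turned to -0.25 and the shift in Mist1KO was -0.36, both with overlapping groups. With it Mist1KO lay below wild type without overlap after caerulein (-0.87) and also after saline (-0.77). The direction in wild type and the size after saline thus depend on the probe set. These shifts are given without a test.

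**Figure D2:**
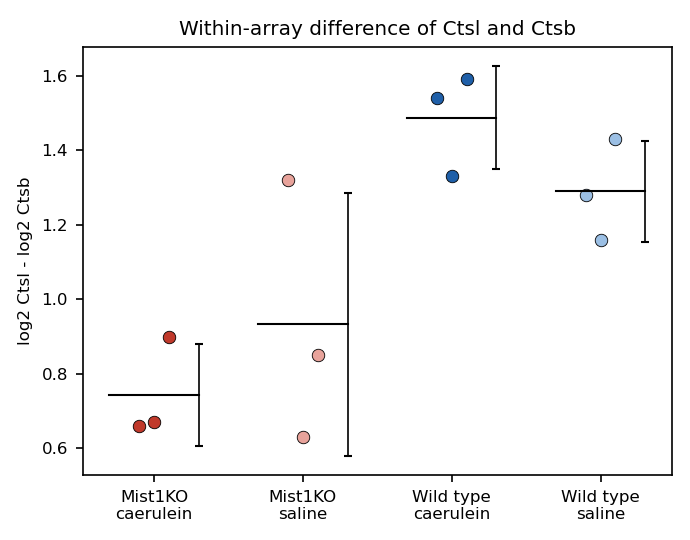
Difference of log2 Ctsl and log2 Ctsb (brightest probe sets) in each of the 12 pancreata, with a line at the group mean and a bar of 1 SD (n = 3). Group means were 0.74 ± 0.14 in Mist1KO caerulein, 0.93 ± 0.36 in Mist1KO saline, 1.49 ± 0.14 in wild type caerulein and 1.29 ± 0.13 in wild type saline; the 3 Mist1KO caerulein points lie below the 3 wild type caerulein points.

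Ctsd (chr7:142375910-142387827) encodes cathepsin D, an aspartic protease of the lysosome. It read 1052.8, 1065.6 and 1112.3 in Mist1KO caerulein, 1061.1, 1187.1 and 1079.9 in Mist1KO saline, 1149.7, 1090.6 and 1104.8 in wild type caerulein, and 1234.8, 1263.8 and 1263.1 in wild type saline. The wild type saline arrays were the highest of the 12, by a narrow margin. No comparison passed, with changes of -0.04 ± 0.09 for caerulein in Mist1KO (adjusted p = 0.800) and -0.17 ± 0.09 in wild type (adjusted p = 0.236). After quantile normalization the wild type change was -0.37 and passed (adjusted p = 0.0161).

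Lamp1 (chr8:13159161-13175338) encodes an abundant glycoprotein of the lysosomal membrane. Its signal was 1311.3, 1745.7 and 1532.9 in Mist1KO caerulein and 2186.1, 2239.4 and 1984.7 in Mist1KO saline. In wild type it was 2056, 2357.3 and 2459 after caerulein and 2212.3, 2269.6 and 2208.5 after saline. The Mist1KO caerulein arrays lay below the other 9. Lamp1 fell with caerulein in Mist1KO (-0.48 ± 0.12, 1.40-fold, adjusted p = 0.00884), and did not pass in wild type (0.03 ± 0.12, adjusted p = 0.870). The fall did not pass with arrays centred on their medians (-0.36, adjusted p = 0.0674) or without Mist1KO caerulein replicate 1 (-0.38, adjusted p = 0.0541). After caerulein it was lower in Mist1KO than in wild type (-0.58 ± 0.12, adjusted p = 0.00360), and the difference of the responses did not pass (-0.52 ± 0.17, adjusted p = 0.122).

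Lamp2 (chrX:38399647-38456460) encodes the companion glycoprotein, which is needed for the clearance of autophagosomes. It was the gene of the 9 that was higher in Mist1KO after saline. With the brightest probe set, 1428094_at, the signal was 1205.3, 1029.1 and 1465.2 in Mist1KO caerulein, 996.7, 777.8 and 842.2 in Mist1KO saline, 390.1, 562.2 and 517.6 in wild type caerulein, and 493.4, 495 and 639.5 in wild type saline. All 6 Mist1KO arrays lay above all 6 wild type arrays. After caerulein the genotypes differed by 1.30 ± 0.17 (2.46-fold, adjusted p = 0.000145), and after saline by 0.67 ± 0.17 (1.59-fold, adjusted p = 0.0205). The call after saline ended without Mist1KO saline replicate 1 (adjusted p = 0.0867) or replicate 3 (0.0544) and without wild type saline replicate 1 (0.0673) or replicate 2 (0.0731).

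The other 3 probe sets of Lamp2 were also higher in Mist1KO after caerulein. 1416344_at read 453.1, 485.7 and 524.8 in Mist1KO and 277.6, 271.6 and 272.8 in wild type, a difference of 0.79 ± 0.13 (adjusted p = 0.000747). 1434503_s_at differed by 0.92 ± 0.18 (adjusted p = 0.00254) and 1416343_a_at by 0.81 ± 0.22 (adjusted p = 0.0185). The last call ended without Mist1KO caerulein replicate 2 (adjusted p = 0.0842) or replicate 3 (0.0652) and without wild type caerulein replicate 1 (0.0561) or replicate 3 (0.0528). After saline 1416344_at was also higher in Mist1KO (0.70 ± 0.13, adjusted p = 0.00354), while 1434503_s_at (0.23 ± 0.18, adjusted p = 0.417) and 1416343_a_at (0.30 ± 0.22, adjusted p = 0.392) did not pass.

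The probe sets of Lamp2 did not move alike with caerulein. In Mist1KO, 1428094_at changed by 0.48 ± 0.17 (adjusted p = 0.0521) and 1434503_s_at by 0.50 ± 0.18 (adjusted p = 0.0580), while 1416344_at changed by -0.32 ± 0.13 (adjusted p = 0.0880). With arrays centred on their medians the first 2 of these passed (0.61 and 0.62, adjusted p = 0.0281 and 0.0203). After quantile normalization 1416344_at passed in the opposite direction (-0.39, adjusted p = 0.0445). In wild type 1416344_at fell by 0.41 ± 0.13 (adjusted p = 0.0376) and the other 3 did not pass. That fall did not pass with arrays centred on their medians (-0.28, adjusted p = 0.187) or without any of 7 single arrays (adjusted p from 0.0503 to 0.113), which were Mist1KO caerulein replicate 2, Mist1KO saline replicate 3, every wild type caerulein array, and wild type saline replicates 2 and 3. The call also ended without an intensity trend, with array weights and with only the 6 arrays compared. Lamp2 transcripts differ in their last exon, and the annotation used does not say which of them each probe set reads. The pattern of 1428094_at over the 12 arrays was most like those of Atp1b1, a subunit of the sodium pump, Snx3, a sorting nexin, Spin1 and Esrp2, a splicing regulator of epithelia. Their root mean square differences from it, between log2 values centred on each gene's own mean, were 0.19, 0.23, 0.23 and 0.23.

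**Figure D3:**
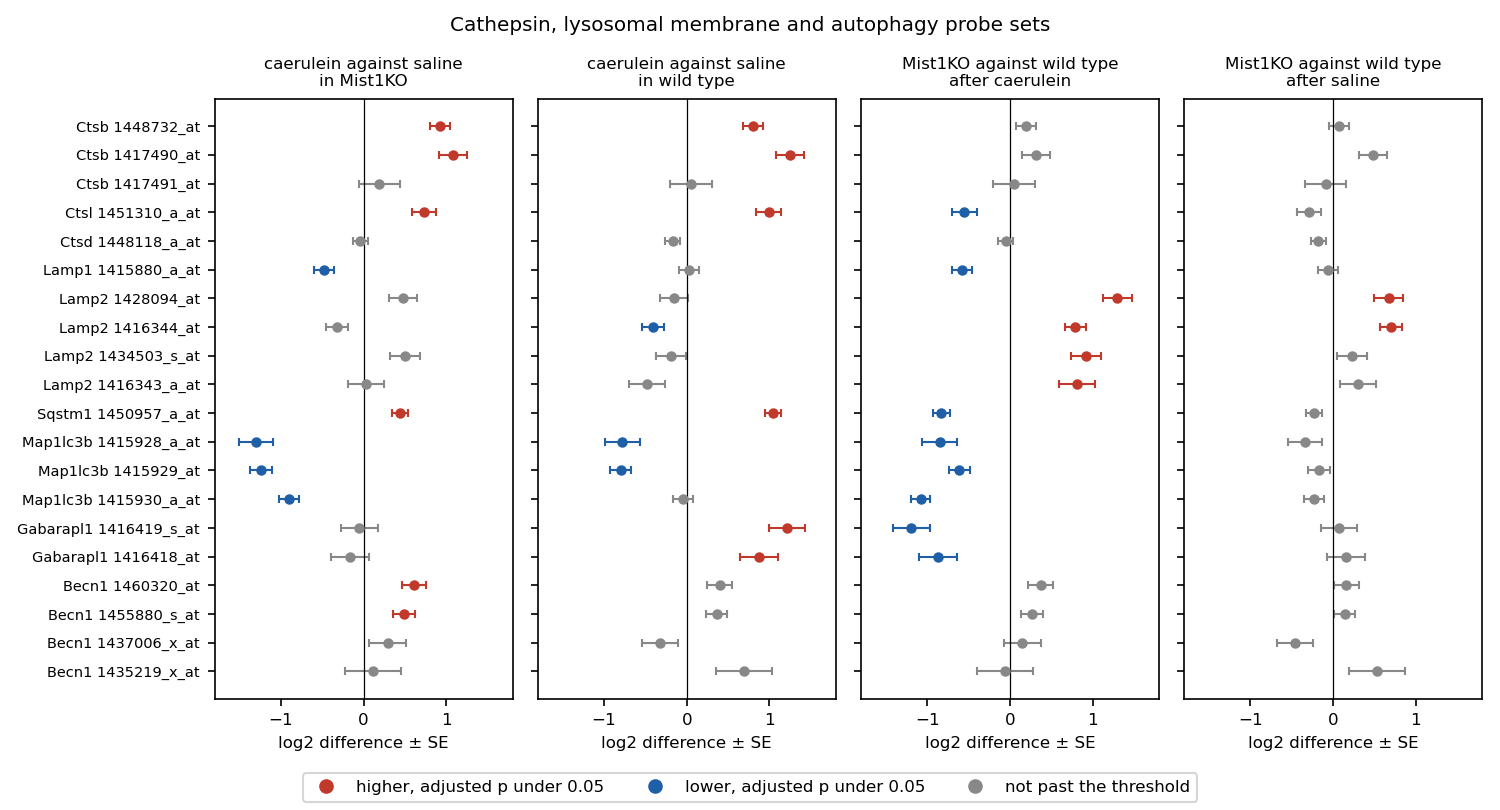
Log2 difference ± SE (n = 3 per group) of each of the 20 tested probe sets in the 4 comparisons of groups; red marks higher, blue lower, grey not past an adjusted p of 0.05 (limma). The 4 Lamp2 probe sets stand to the right in the comparison of genotypes after caerulein, while Sqstm1, Map1lc3b, Gabarapl1, Lamp1 and Ctsl stand to the left.

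Sqstm1 (chr11:50200152-50210820) encodes p62, which carries ubiquitinated cargo into autophagosomes. Its signal was 2069.7, 2108.2 and 2251.3 in Mist1KO caerulein, against 1574.3, 1544.9 and 1617 in Mist1KO saline. It was 4070.2, 3892.4 and 3504.2 in wild type caerulein, against 1868.7, 1737.6 and 1955 in wild type saline. No 2 of the 4 groups overlapped. Sqstm1 rose with caerulein by 0.44 ± 0.10 in Mist1KO (1.35-fold, adjusted p = 0.00577) and by 1.04 ± 0.10 in wild type (2.05-fold, adjusted p = 8.74e-06). After caerulein it was 1.77-fold lower in Mist1KO than in wild type (-0.83 ± 0.10, adjusted p = 7.93e-05), and after saline the change was -0.23 ± 0.10 (adjusted p = 0.152).

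Gabarapl1 (chr6:129533192-129542331) encodes a ubiquitin-like protein of the autophagosome membrane, related to LC3. With 1416419_s_at the signal was 797.8, 556.8 and 862.9 in Mist1KO caerulein, 908.5, 803.9 and 586.3 in Mist1KO saline, 1187.1, 1897.8 and 2106.7 in wild type caerulein, and 709.3, 720.2 and 720.5 in wild type saline. The 3 wild type caerulein arrays lay above the other 9. The change with caerulein was -0.05 ± 0.22 in Mist1KO (95% interval -0.52 to 0.41, adjusted p = 0.895) and 1.21 ± 0.22 in wild type (2.31-fold, adjusted p = 0.00137). After caerulein the gene was 2.28-fold lower in Mist1KO (-1.19 ± 0.22, adjusted p = 0.00164). The dimmer 1416418_at changed by -0.16 ± 0.23 in Mist1KO (adjusted p = 0.672) and by 0.87 ± 0.23 in wild type (adjusted p = 0.0187). It was lower in Mist1KO after caerulein (-0.87 ± 0.23, adjusted p = 0.0181), where the groups overlapped. The wild type call of 1416418_at ended without wild type caerulein replicates 2 or 3 or wild type saline replicate 3 (adjusted p = 0.0619, 0.0896 and 0.0513), and that between the genotypes without Mist1KO caerulein replicates 1 or 2 or wild type caerulein replicates 2 or 3 (0.0700, 0.0700, 0.0643 and 0.0823).

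Map1lc3b (chr8:121590438-121598760) encodes LC3B, the ubiquitin-like protein that is joined to the growing autophagosome membrane. With 1415928_a_at the signal was 676.3, 413.3 and 831.2 in Mist1KO caerulein, against 1548.8, 1355.8 and 1731.8 in Mist1KO saline. It was 1149.2, 1317.2 and 941.3 in wild type caerulein, against 2257.1, 1814.5 and 1797.4 in wild type saline. In each genotype the caerulein arrays lay below the saline arrays. The fall was 1.30 ± 0.21 in Mist1KO (2.45-fold, adjusted p = 0.000451). In wild type the change was -0.78 ± 0.21 (1.72-fold, adjusted p = 0.0185), and it did not pass without wild type caerulein replicate 3 (adjusted p = 0.0812) or wild type saline replicate 1 (0.0715). 1415929_at averaged 602.7 and 1436 in Mist1KO caerulein and Mist1KO saline, against 925.8 and 1637 in the wild type groups after caerulein and saline. It fell by 1.24 ± 0.13 in Mist1KO (adjusted p = 1.68e-05) and by 0.80 ± 0.13 in wild type (adjusted p = 0.000926).

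A further probe set of Map1lc3b, 1415930_a_at, fell with caerulein in Mist1KO but did not pass in wild type. Its signal was 495.2, 497.3 and 426.2 in Mist1KO caerulein, 1015.4, 740.9 and 960.9 in Mist1KO saline, 1015.9, 984.5 and 1052.5 in wild type caerulein, and 1031.4, 1104.3 and 1027.7 in wild type saline. The changes were -0.90 ± 0.12 in Mist1KO (adjusted p = 0.000130) and -0.05 ± 0.12 in wild type (adjusted p = 0.814). After caerulein all 3 of these probe sets were lower in Mist1KO than in wild type, by 0.85 ± 0.21, 0.61 ± 0.13 and 1.08 ± 0.12 (adjusted p = 0.0111, 0.00572 and 5.5e-05). The call of 1415928_a_at there ended without wild type caerulein replicate 2 (adjusted p = 0.0503). The fourth probe set, 1428024_at, read 5.6 to 37.7 and was left out by the filter. In the pattern of 1415928_a_at over the 12 arrays, the most similar genes were Gbf1, an activator of the small GTPase Arf1, Stard7, a lipid transfer protein, Tmem131l and Pcca, a subunit of a mitochondrial carboxylase, with root mean square differences of 0.19, 0.20, 0.21 and 0.21.

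Becn1 (chr11:101288258-101302286) encodes Beclin 1, a subunit of the lipid kinase complex that starts autophagosome formation. With 1460320_at the signal was 581.4, 532.6 and 437.8 in Mist1KO caerulein, 296.3, 380.7 and 319.9 in Mist1KO saline, 390.2, 349.2 and 447.8 in wild type caerulein, and 332.3, 255 and 299.2 in wild type saline. In each genotype the caerulein arrays lay above the saline arrays. The gene rose in Mist1KO by 0.61 ± 0.15 (1.52-fold, adjusted p = 0.00954), and in wild type the change was 0.40 ± 0.15 (adjusted p = 0.0833). 1455880_s_at gave 0.49 ± 0.13 in Mist1KO (adjusted p = 0.0116) and 0.36 ± 0.13 in wild type (adjusted p = 0.0644). Without Mist1KO caerulein replicate 1 both calls in Mist1KO ended (adjusted p = 0.0529 and 0.0578), and with arrays centred on their medians both wild type changes passed (adjusted p = 0.0330 and 0.0248). The other 2 probe sets read 8.7 to 149.6 and did not pass in any comparison.

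The difference between the caerulein responses of the genotypes was tested for each probe set, and 3 of the 20 passed, which is 15% beside 3.3% of all probe sets tested (1.51% higher and 1.78% lower). All 3 responses were lower in Mist1KO than in wild type. They were Map1lc3b with 1415930_a_at (-0.85 ± 0.18, adjusted p = 0.0187), Sqstm1 (-0.60 ± 0.14, adjusted p = 0.0346) and Gabarapl1 with 1416419_s_at (-1.26 ± 0.31, adjusted p = 0.0401). The call of Map1lc3b ended without Mist1KO saline replicate 1 (adjusted p = 0.0521) or replicate 3 (0.0586). That of Sqstm1 ended after quantile normalization (adjusted p = 0.106), and without any of 9 single arrays (adjusted p from 0.0576 to 0.0948), which were all but Mist1KO caerulein replicate 3, wild type caerulein replicate 3 and wild type saline replicate 3. That of Gabarapl1 also ended without any of 9 single arrays (adjusted p from 0.0654 to 0.0992), which were all but Mist1KO caerulein replicate 3, Mist1KO saline replicate 3 and wild type caerulein replicate 1. Without an intensity trend in the test none of the 3 passed (adjusted p = 0.0622, 0.116 and 0.0891). The count of 3 fell to 0 when Mist1KO saline replicate 1 was left out, and to 1 for Mist1KO caerulein replicates 1 or 2, Mist1KO saline replicates 2 or 3, wild type caerulein replicate 2 or wild type saline replicates 1 or 2.

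**Figure D4:**
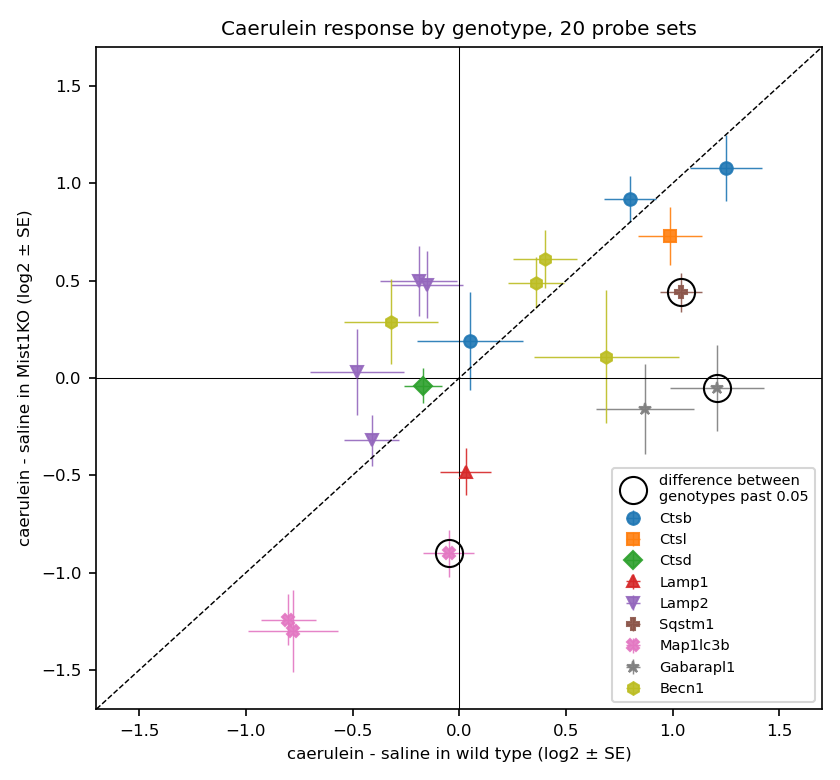
Change with caerulein in wild type (horizontal) and in Mist1KO (vertical), log2 ± SE with n = 3 per group, for the 20 tested probe sets, with the dashed line where both are equal. Circled points, 1 each of Sqstm1, Map1lc3b and Gabarapl1, passed an adjusted p of 0.05 for the difference between genotypes (limma), and all 3 lie below the line.

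Other measures moved with the falls in Mist1KO caerulein. Of the 15 tested acinar markers, 14 fell with caerulein in Mist1KO and none rose (median -0.63), and 1 fell in wild type (median -0.23). These are 93.3% beside 24.2% of all genes in Mist1KO and 6.67% beside 18.7% in wild type. Between Mist1KO and wild type after caerulein 13 were lower (median -0.90), which is 86.7% beside 20.7% of all genes. The hybridisation spikes, which no tissue makes, changed by -1.03 with caerulein in Mist1KO, by -0.27 in wild type and by -1.23 between the genotypes after caerulein. The 18S ribosomal RNA controls of the array were also lowest there: the control at the middle of that RNA read 5.3, 24.2 and 9.2 in Mist1KO caerulein, against 41.7 to 57.6 in Mist1KO saline, 45.9 to 55 in wild type caerulein and 61.3 to 336.2 in wild type saline. The part of the acinar and other cell type markers, the spikes and the 18S controls in the falls of Lamp1 and Map1lc3b was not tested. It was also not tested for the other values, of members and of the pathway genes below, that were lower in Mist1KO caerulein than in wild type caerulein. The same holds for the lower responses to caerulein in Mist1KO.

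The wider pathway was read from 10 lists with 182 genes, of which 142 were tested, each by its brightest probe set. With caerulein in Mist1KO, 12 rose and 38 fell, which is 35.2% beside 24.2% of all 9481 genes tested (10.2% higher and 14% lower). With caerulein in wild type, 21 rose and 20 fell, which is 28.9% beside 18.7% of all (8.74% higher and 9.96% lower). The median change of the 142 was -0.24 in Mist1KO and -0.15 in wild type, against -0.14 and -0.16 over all genes. The Mist1KO count of 50 fell to 30, 33 and 32 without Mist1KO saline replicate 1, Mist1KO saline replicate 3 or Mist1KO caerulein replicate 2. Among the 6 other cathepsins tested, 1 rose in Mist1KO and 2 in wild type, and none fell. That is 16.7% in Mist1KO and 33.3% in wild type, beside 24.2% and 18.7% of all genes past the threshold in either direction. Among 27 lysosomal hydrolases and activators, 1 rose and 8 fell in Mist1KO (33.3%), while none rose and 1 fell in wild type (3.7%), beside the same shares of all genes. Lgmn, the lysosomal protease legumain that processes cathepsins, read 83.6, 157 and 223.6 in Mist1KO caerulein against 37.5, 83.5 and 38 in Mist1KO saline (1.25 ± 0.37, adjusted p = 0.0239). Its call ended without Mist1KO caerulein replicates 2 or 3 or Mist1KO saline replicates 1 or 3 (adjusted p = 0.0793, 0.1, 0.0861 and 0.0870).

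Of 9 other lysosomal membrane proteins, 3 fell in Mist1KO, and 1 rose and 2 fell in wild type. That is 33.3% in each genotype, beside 24.2% of all genes in Mist1KO and 18.7% in wild type. Of 15 subunits of the V-ATPase, the proton pump that acidifies lysosomes, 1 rose and 4 fell in Mist1KO (33.3%) and 2 rose in wild type (13.3%, under the share of all genes). Atp6v1b2, a subunit of its catalytic part, read 2023.2, 2188.1 and 1408.6 in Mist1KO caerulein against 453.4, 365.7 and 395.1 in Mist1KO saline (2.14 ± 0.21, adjusted p = 6.15e-06). In wild type it read 797.8, 1286.3 and 1400.1 after caerulein against 290.8, 293.6 and 370.9 after saline (1.78 ± 0.21, adjusted p = 4.56e-05). Of 8 genes of lysosomal sorting and protease inhibition, 2 rose and 1 fell in each genotype (37.5%). M6pr, a mannose 6-phosphate receptor that carries hydrolases to lysosomes, rose by 1.39 ± 0.15 in Mist1KO (adjusted p = 1.39e-05) and by 1.5 ± 0.15 in wild type (adjusted p = 1.14e-05).

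Of 19 genes of autophagy initiation and nucleation, 2 rose and 6 fell in Mist1KO, and 2 rose and 2 fell in wild type. That is 42.1% beside 24.2% of all genes in Mist1KO and 21.1% beside 18.7% in wild type. Vmp1, a membrane protein of autophagosome formation that is known to be induced in pancreatitis, read 960.7, 1029.7 and 994.5 in Mist1KO caerulein against 346.3, 304.6 and 195.1 in Mist1KO saline (1.79 ± 0.19, adjusted p = 1.65e-05), and it rose in wild type by 1.22 ± 0.19 (adjusted p = 0.000598). Its other tested probe set, 1421491_a_at, did not pass in either genotype (0.03, adjusted p = 0.918 in Mist1KO and -0.19, adjusted p = 0.417 in wild type). Ulk1, the kinase that starts autophagy, fell by 1.53 ± 0.22 in Mist1KO (adjusted p = 0.000207) and by 0.95 ± 0.22 in wild type (adjusted p = 0.00917) with its brightest probe set. With 1416504_at its changes were -0.95 in Mist1KO (adjusted p = 0.0697) and 0.18 in wild type (adjusted p = 0.758), which did not pass. Atg2b, a lipid transfer protein of the growing membrane, fell by 1.32 ± 0.38 in Mist1KO (adjusted p = 0.0204), and its call ended without Mist1KO caerulein replicates 2 or 3 or Mist1KO saline replicates 1 or 2 (adjusted p = 0.0651, 0.0602, 0.0654 and 0.0583). Nrbf2, a subunit of the Beclin 1 kinase complex, read 394.3, 294.3 and 263.5 in Mist1KO caerulein and 215.7, 218.3 and 264.4 in Mist1KO saline, which overlapped. It read 712.8, 1150 and 1018.1 in wild type caerulein against 218.1, 244.1 and 332.8 in wild type saline (1.78 ± 0.20, adjusted p = 3.69e-05).

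Of the 10 genes of ubiquitin-like conjugation, 1 rose and 2 fell in Mist1KO and 2 rose and 2 fell in wild type. That is 30% beside 24.2% of all genes in Mist1KO and 40% beside 18.7% in wild type. Atg12, itself a ubiquitin-like protein, fell in wild type by 1.20 ± 0.29 (adjusted p = 0.0110), and by 0.77 without wild type caerulein replicate 2. Of 11 autophagy cargo receptors, 6 fell and none rose in Mist1KO, beside 14% of all genes that fell, and 5 fell and 2 rose in wild type, beside 9.96% of all that fell. Their median change was -0.99 in Mist1KO and -0.47 in wild type, against -0.14 and -0.16 over all genes. Sec62, a receptor for endoplasmic reticulum in autophagy that also serves the ER translocon, read 637.6, 510.8 and 652 in Mist1KO caerulein against 2011.1, 2115.5 and 2220 in Mist1KO saline (-1.79 ± 0.12, adjusted p = 2.61e-07). In wild type it read 680, 634.9 and 652.6 after caerulein against 1872.6, 1546.1 and 1581.1 after saline (-1.32 ± 0.12, adjusted p = 5.02e-06). With this brightest probe set the saline and caerulein arrays of Sec62 were far apart in both genotypes. Its other tested probe sets also fell in both, with changes from -1.97 to -1.63 in Mist1KO and from -1.46 to -0.51 in wild type. The probe set with the smallest wild type change (-0.51 ± 0.17, adjusted p = 0.0458) had overlapping wild type groups. In Mist1KO the same probe set changed by -1.63 ± 0.17 (adjusted p = 9.64e-06), without overlap.

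Nbr1, a receptor related to p62, fell by 1.63 ± 0.12 in Mist1KO (adjusted p = 4.95e-07) and by 0.99 ± 0.12 in wild type (adjusted p = 4.93e-05), while Sqstm1 rose in both. Ccpg1, a further receptor for endoplasmic reticulum, fell by 1.73 ± 0.20 in Mist1KO (adjusted p = 3.23e-05) and by 1.03 ± 0.20 in wild type (adjusted p = 0.00293). Bnip3, a mitochondrial receptor, fell by 1.84 ± 0.22 in Mist1KO (adjusted p = 3.16e-05). Of 12 genes of fusion between autophagosomes and lysosomes, 3 fell in Mist1KO, and 1 rose and 2 fell in wild type. That is 25% in each genotype, beside 24.2% of all genes in Mist1KO and 18.7% in wild type.

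Of 25 regulators of lysosome and autophagy genes, 4 rose and 5 fell in Mist1KO, and 7 rose and 5 fell in wild type. That is 36% beside 24.2% of all genes in Mist1KO and 48% beside 18.7% in wild type. Atf4, the transcription factor of the integrated stress response, rose by 1.66 ± 0.15 in Mist1KO (adjusted p = 2.62e-06) and by 2.24 ± 0.15 in wild type (adjusted p = 3.87e-07). Sesn2, an inhibitor of the growth kinase complex mTORC1, read 70.5, 56 and 10.1 in Mist1KO caerulein and 17.5, 31.6 and 30.2 in Mist1KO saline. It read 462.1, 512.3 and 528 in wild type caerulein against 15.2, 30.8 and 46.9 in wild type saline (3.44 ± 0.37, adjusted p = 2.09e-05). Its Mist1KO groups overlapped, and its wild type groups were far apart.

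Trp53inp1, a stress protein that binds LC3, read 1423.6, 1537.6 and 401.4 in Mist1KO caerulein and 851.5, 532.5 and 373.8 in Mist1KO saline. It read 4088.4, 4449.1 and 4302.2 in wild type caerulein against 289.6, 318.8 and 331.2 in wild type saline (3.70 ± 0.39, adjusted p = 1.88e-05). Ddit4, a further inhibitor of mTORC1, rose by 1.85 ± 0.49 in Mist1KO (adjusted p = 0.0132) and by 2.96 ± 0.49 in wild type (adjusted p = 0.000756). The Mist1KO call of Ddit4 ended without Mist1KO caerulein replicates 1 or 2 or Mist1KO saline replicates 2 or 3 (adjusted p = 0.0521, 0.0592, 0.0628 and 0.0503). Tfeb, the transcription factor that drives lysosomal genes, read 142, 57.4 and 99.7 in wild type caerulein against 211.7, 255.1 and 285.6 in wild type saline (-1.24 ± 0.37, adjusted p = 0.0320). That call ended with arrays centred on their medians (adjusted p = 0.0568) and without wild type caerulein replicates 2 or 3 or wild type saline replicates 1, 2 or 3 (adjusted p from 0.0513 to 0.123).

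**Figure D5:**
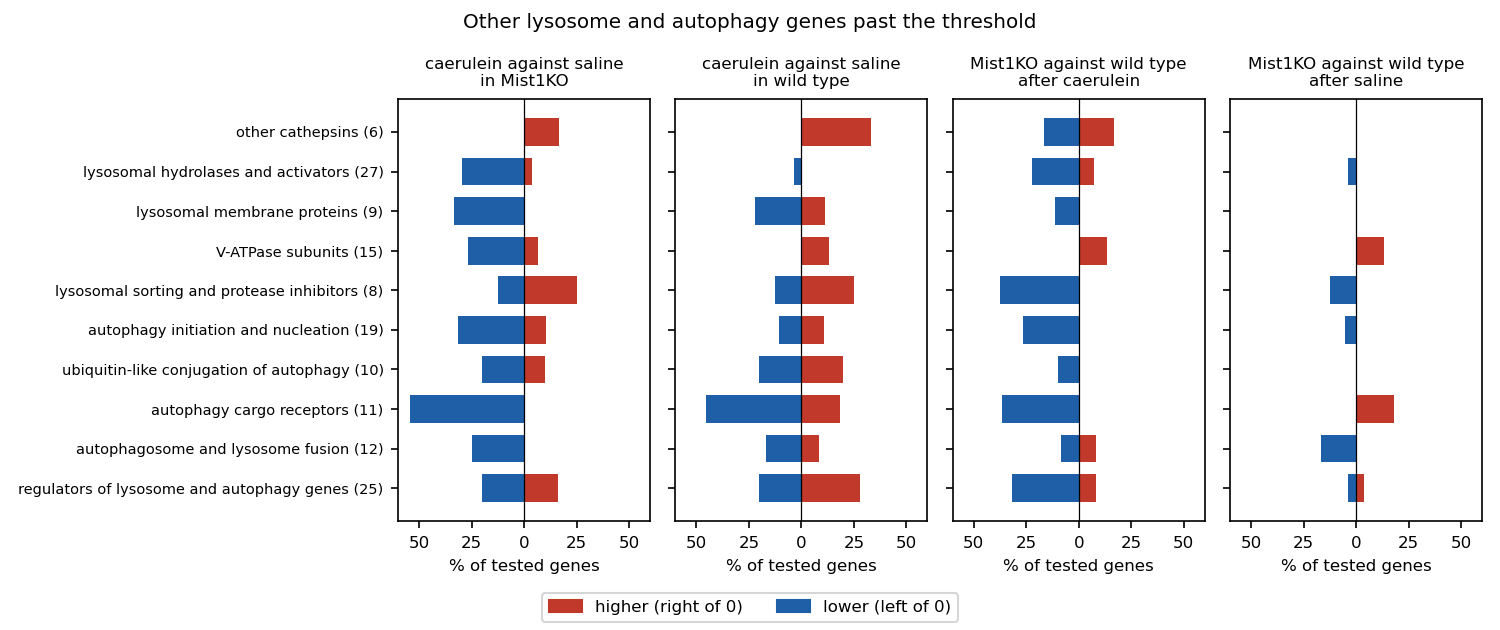
Share of the tested genes of each list (number in brackets) that was higher (red, right of 0) or lower (blue, left of 0) in each of the 4 comparisons, in percent, at an adjusted p under 0.05 in limma. With caerulein in Mist1KO 6 of the 11 autophagy cargo receptors are shown lower, and the comparison of genotypes after saline has few calls.

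The difference between the caerulein responses of the genotypes passed for 3 of the 142 genes, which is 2.11% beside 3.34% of all genes (1.48% higher and 1.87% lower). They were Sesn2 (-3.07 ± 0.52, adjusted p = 0.00622), Trp53inp1 (-2.92 ± 0.55, adjusted p = 0.0119) and Nrbf2 (-1.38 ± 0.29, adjusted p = 0.0188), each with the lower response in Mist1KO. The call of Nrbf2 ended without Mist1KO caerulein replicate 2 (adjusted p = 0.0503) or Mist1KO saline replicate 3 (0.0575).

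Between Mist1KO and wild type after saline, 5 of the 142 were higher and 6 lower, which is 7.75% beside 13.1% of all genes (6.14% higher and 6.95% lower). Lamtor1, a lysosomal anchor of mTORC1, was higher in Mist1KO (0.65 ± 0.12, adjusted p = 0.00401). Tecpr1, a tether of autophagosomes to lysosomes (-0.90 ± 0.16, adjusted p = 0.00310), and Vamp8, a fusion protein of autophagosomes that also serves granule exocytosis (-0.69 ± 0.14, adjusted p = 0.00793), were lower. Cst3, the cathepsin inhibitor cystatin C, read 1420.3, 1141.6 and 1257.5 in Mist1KO saline against 1724.7, 2073.6 and 1888 in wild type saline (-0.57 ± 0.13, adjusted p = 0.0133), and its call ended without Mist1KO saline replicate 2 (adjusted p = 0.0547) or wild type saline replicate 2 (0.0540). Subunits Atp6v1a (0.69 ± 0.21, adjusted p = 0.0440) and Atp6v0e (0.58 ± 0.15, adjusted p = 0.0249) of the V-ATPase, and the cargo receptors Ncoa4, for ferritin (0.64 ± 0.16, adjusted p = 0.0179), and Fundc1, for mitochondria (0.45 ± 0.14, adjusted p = 0.0497), were higher. Tfeb (-1.23 ± 0.37, adjusted p = 0.0454) and Gusb, the lysosomal beta-glucuronidase (-0.62 ± 0.18, adjusted p = 0.0407), were lower. The other tested probe set of Fundc1 had the opposite sign (-0.12, adjusted p = 0.711). Those of Atp6v1a (0.33, adjusted p = 0.203), Ncoa4 (0.47, adjusted p = 0.0734) and Gusb (-0.24, adjusted p = 0.445) had the same sign and did not pass.

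Besides that of Cst3, single arrays ended 6 more of these calls. That of Atp6v0e ended without Mist1KO saline replicates 1 or 2 or wild type saline replicates 1 or 2 (adjusted p from 0.0767 to 0.0987). The call of Ncoa4 ended without Mist1KO saline replicate 1 or wild type saline replicates 1 or 2 (0.0567 to 0.0732). That of Atp6v1a ended without Mist1KO caerulein replicates 1 or 3, any Mist1KO saline array, wild type caerulein replicate 2 or wild type saline replicates 2 or 3 (0.0503 to 0.162). That of Fundc1 ended without any single array (0.0545 to 0.138) other than Mist1KO caerulein replicate 3 and wild type caerulein replicate 1. That of Tfeb ended without Mist1KO caerulein replicate 1, Mist1KO saline replicates 1 or 3, wild type caerulein replicate 3 or any wild type saline array (0.0561 to 0.174). That of Gusb ended without Mist1KO caerulein replicates 1 or 2, Mist1KO saline replicates 1 or 2, wild type caerulein replicate 3 or wild type saline replicates 1 or 2 (0.0501 to 0.160). The 11 calls became 5 when Mist1KO saline replicate 1 or wild type saline replicate 2 was left out. They became 6 when wild type saline replicate 1 was left out, and 7 for Mist1KO saline replicate 3 or Mist1KO caerulein replicate 1.

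After caerulein, 8 of the 142 were higher in Mist1KO than in wild type and 30 lower, which is 26.8% beside 20.7% of all genes (9.03% higher and 11.6% lower). Manba, the lysosomal beta-mannosidase (1.05 ± 0.19, adjusted p = 0.00146), and Lamtor1 (0.85 ± 0.12, adjusted p = 0.000295) were higher. Atp6v1b2 (0.70 ± 0.21, adjusted p = 0.0290), Ctse, an aspartic cathepsin (0.60 ± 0.19, adjusted p = 0.0410), Atp6v0e (0.57 ± 0.15, adjusted p = 0.0177) and Rragc, a GTPase that brings mTORC1 to lysosomes (0.52 ± 0.16, adjusted p = 0.0371), were higher too. The call of Atp6v1b2 ended without Mist1KO caerulein replicates 1 or 2 or wild type caerulein replicate 1 (adjusted p from 0.101 to 0.12). The call of Rragc ended without the same arrays and also without wild type caerulein replicate 2 (0.0899 to 0.118 over the 4 arrays). The call of Atp6v0e ended without Mist1KO caerulein replicates 1 or 3 or wild type caerulein replicate 2 (0.0571 to 0.0659). A further probe set of Ctse, 1427797_s_at, had the opposite sign and did not pass (-0.40, adjusted p = 0.582). The call of Ctse ended without Mist1KO caerulein replicates 1 or 3, Mist1KO saline replicate 2 or any wild type caerulein array (0.0521 to 0.166). Sesn2 (-3.17 ± 0.37, adjusted p = 5.56e-05), Trp53inp1 (-2.13 ± 0.39, adjusted p = 0.00167), Nrbf2 (-1.53 ± 0.20, adjusted p = 0.000159) and Trp53inp2, a related protein that binds LC3 (-1.08 ± 0.20, adjusted p = 0.00164), were lower. Ddit4 (-1.74 ± 0.49, adjusted p = 0.0221) and Ddit3, the stress transcription factor CHOP (-1.11 ± 0.28, adjusted p = 0.0136), were lower too. The call of Ddit4 ended without Mist1KO caerulein replicate 3 or wild type caerulein replicates 2 or 3 (adjusted p = 0.0853, 0.0711 and 0.0617), and that of Ddit3 without Mist1KO caerulein replicate 1 or wild type caerulein replicate 2 (0.0612 and 0.0670). The count of 38 genes fell to 20 without Mist1KO caerulein replicate 1, to 22 without wild type caerulein replicate 2 and to 25 without wild type caerulein replicate 3.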

How the data were processed

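The study measured RNA of whole mouse pancreas on 12 Affymetrix arrays. The deposited values are a linear signal intensity per probe set, which the authors had summarised and scaled to a like trimmed mean before deposit, as the values themselves show (151.08 to 151.37 with 2% trimmed). No source used here names the software. Probe sets were named from the platform annotation: 20240 had 1 symbol, 682 several and 1530 none. From the intensity, log2(signal + 18.7) was taken, the offset being the 20th percentile of all signals. Probe sets under the 30th percentile were left out, leaving 15716. Groups were compared with limma 3.58.1 in R 4.3.3 (moderated test with an intensity trend, all 12 arrays in 1 fit, 8 residual degrees of freedom, Benjamini-Hochberg adjustment), tested on simulated data. A gene was read by its brightest probe set.

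The pathway genes named are, per comparison, up to 6 of the largest rises and falls past the threshold with groups that do not overlap, and any with a passing difference of responses. Genes alike in pattern are the 4 with the smallest root mean square difference, for the 2 members with the widest range of group means. The 9 genes, the 10 pathway lists and the marker lists were chosen with earlier results of these data known. Alternatives were quantile normalization, median centring, other offsets and filters, no intensity trend, array weights, a replicate block, only the 6 arrays compared, and each array left out. Figures were drawn with matplotlib 3.10.9.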

Additional observations from a re-analysis of the deposited data

Results flagged for a closer look

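The caerulein response differed between Mist1KO and wild type, by a test of the difference itself (limma, adjusted over all probe sets), for 3 of the 20 tested member probe sets (15%, beside 3.3% of all probe sets) and for 3 of the 142 pathway genes (2.11%, beside 3.34% of all genes). As Mist1KO minus wild type on the log2 scale, the difference was -0.60 for Sqstm1, -0.85 for Map1lc3b with 1415930_a_at, and -1.26 for Gabarapl1 with 1416419_s_at. It was -1.38 for Nrbf2, -3.07 for Sesn2 and -2.92 for Trp53inp1. All 6 responses were lower in Mist1KO. The other tested probe sets of Map1lc3b (-0.52 and -0.44) and Gabarapl1 (-1.03) had the same sign and did not pass (adjusted p = 0.415, 0.264 and 0.118).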

How the results depend on the processing

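Of 36 member results past the threshold, 22 kept their side of it under every alternative run and none turned its direction, and of 46 named pathway results 28 kept theirs and none turned. Leaving out single arrays, which left at least 2 per group, gave 6 to 9 member probe sets for caerulein in wild type, 7 to 12 in Mist1KO, 1 to 3 between genotypes after saline, 9 to 12 after caerulein, and 0 to 3 for the difference of responses. For pathway genes the ranges were 28 to 43, 30 to 51, 5 to 12, 20 to 45 and 2 to 5. With only the 6 arrays compared, the pathway counts were 27 for caerulein in wild type and 5 between genotypes after saline. That last count was 7 with no filter on dim probe sets and 5 without the intensity trend. For the difference of responses, 0 member probe sets passed without the trend, and array weights gave 5 pathway genes. The shift of Ctsl against Ctsb in wild type was 0.38 after quantile normalization. With Ctsb read by 1417490_at it turned to -0.25 in wild type, and was -0.36 in Mist1KO, -0.77 between genotypes after saline and -0.87 after caerulein. Without single arrays it was 0.13 to 0.27 in wild type, -0.34 to 0.01 in Mist1KO, -0.55 to -0.21 between genotypes after saline and -0.82 to -0.69 after caerulein; the other probe set and the single-array ranges of this shift were chosen after seeing the data. Arrays with the same replicate number did not deviate together (correlations from -0.10 to 0.05), so the numbers were not taken as pairs. With the replicate number as a block the member counts were 8, 10, 2, 12 and 1, and the pathway counts 39, 47, 8, 34 and 3, in the order wild type caerulein, Mist1KO caerulein, genotypes after saline, genotypes after caerulein and difference of responses. The block ended the calls of Sqstm1 and Gabarapl1 in the difference of responses and that of Lamp2 1416344_at in wild type (adjusted p = 0.0672, 0.0689 and 0.0577). The causes of these moves were not tested. Probe sets near the offset of 18.7 have understated changes.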
